A study of Homo sapiens with 24 samples.

Results

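The nuclear-encoded subunits of the mitochondrial respiratory chain were followed through an RNA immunoprecipitation sequencing series in HCT116, a human colon carcinoma cell line. Members were all rows of the gene table whose symbol is that of a subunit of complex I (NDUFA, NDUFB, NDUFC, NDUFS or NDUFV plus a number), complex III (UQCR), complex IV (COX4 to COX8) or ATP synthase (ATP5), pseudogene names left out. This gave 82 of 28307 genes: 36 of complex I, 9 of complex III, 18 of complex IV and 19 of ATP synthase. NDUFA4, which carries an old complex I name, was counted with complex IV. The rule reads gene symbols alone, and it leaves out complex II and the subunits CYC1 and NDUFAB1.

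The cells carried GFP knocked in at RUVBL1 or at RPAP3 by CRISPR/Cas9, so every library comes from a tagged line, and whether a line is 1 clone is not given in the sources used here. RNA was recovered on beads coupled to a GFP binder (GFP beads) or on uncoupled agarose beads, which measure the RNA that adheres without the bait. In the RUVBL1 line, cells were untreated, given puromycin (100 µg/mL for 30 min), given CB-6644 (0.5 µM for 16 h) or given both, and each was taken through both kinds of beads, which makes 8 groups. In the RPAP3 line, untreated and puromycin-treated cells were taken through both beads, which makes 4 groups. Each of the 12 groups had 2 libraries. The labels do not say that replicates came from separate cultures, or whether GFP and uncoupled beads shared a lysate, so p-values cover no more than the spread among the libraries at hand, some of which may be technical.

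Complexes I, III and IV pass electrons from NADH to oxygen and pump protons across the inner mitochondrial membrane, and ATP synthase uses that gradient to make ATP. Most of their subunits are encoded in the nucleus, made on cytosolic ribosomes and imported. Several catalytic and scaffold subunits are large proteins with matrix domains, whereas many accessory subunits are very small proteins with a single membrane helix. RUVBL1 is an AAA+ ATPase that acts with RUVBL2, and RPAP3 is its HSP90-binding partner in the R2TP chaperone complex, which helps to assemble RNA polymerases, small nucleolar ribonucleoproteins and the spliceosome protein PRPF8. Puromycin ends nascent chains early and parts them from their ribosome and mRNA, and CB-6644 inhibits the ATPase of RUVBL1 and RUVBL2. The comparisons ask which mRNAs come down with each bait, and which of them depend on intact translation or on the ATPase.

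Libraries held 9019665 to 33051512 counts in the RUVBL1 line and 30844089 to 50394245 in the RPAP3 line, and replicates correlated at 0.912 to 0.978 on log2 counts. Replicates differed by more than sampling noise in every group, so none were merged. By principal components, 3 libraries of the RUVBL1 line stood apart: GFP beads with CB-6644 replicate 2, GFP beads with both drugs replicate 1, and uncoupled beads untreated replicate 2. Results resting on them are given with and without them. Of 8 colon epithelial markers, 5 were above 1 CPM (counts scaled to a common library size) in every library, among them EPCAM and KRT8, while CDX1, VIL1 and CEACAM5 stayed near 0. Markers of blood, liver and testis summed to at most 3.88, 1.22 and 0.41 CPM, and those of stroma to 5.49 to 45.7 CPM, nearly all of it COL1A1. Of the muscle list TNNT1 was at 238 to 587 CPM, and MYH7, ACTA1 and CKM were below 1 CPM. PRPF8 mRNA, which encodes a known R2TP client, served as the reference for a recovered mRNA. In untreated RUVBL1 cells it was at 22110 and 13860 CPM on GFP beads and at 286 and 126 CPM on uncoupled beads. In untreated RPAP3 cells it was at 2568 and 5766 CPM on GFP beads and at 118 and 121 CPM on uncoupled beads.

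Together the members took 0.687% to 1.37% of each library in the RUVBL1 line and 1.30% to 1.80% in the RPAP3 line. In the RPAP3 line the 4 untreated libraries lay at 1.507% to 1.802%, and the 4 puromycin libraries lay at 1.304% to 1.343% whichever beads were used. In the RUVBL1 line puromycin-treated cells gave 1.37% and 1.20% on uncoupled beads and 0.869% and 0.887% on GFP beads. The groups do not overlap in either of these comparisons. Of the 82 members, 76 passed the filter on low counts in each line. The 6 that did not are isoforms or copies limited to certain tissues or barely counted: COX6A2, COX7B2 and COX8C had no count in 24 libraries, COX7A1 had 5 counts, COX4I2 had 11 and ATP5MGL had 46. None of these genes was tested, and a count of 0 allows up to 3 counts in a library.

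**Figure D1:**
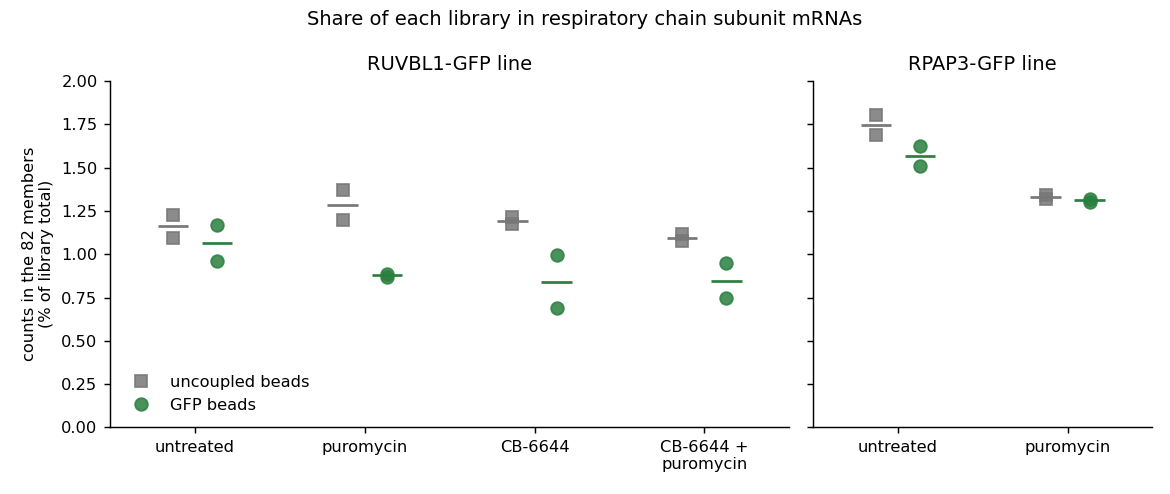
Counts in the 82 members as a percent of each library's total, by drug (x axis), with squares for uncoupled beads, circles for GFP beads and a line at the mean of 2 libraries. In the RPAP3 line both beads fall from 1.507% or more to 1.343% or less with puromycin, and in the RUVBL1 line GFP beads with puromycin lie at 0.869% and 0.887%.

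In the RPAP3 line some members rose and more fell with puromycin, on both kinds of beads. Those that rose on uncoupled beads included NDUFS1 (iron-sulphur subunit of complex I) 3.12-fold, UQCRC2 (core protein of complex III) 2.91-fold, and ATP5F1B (catalytic beta subunit of ATP synthase) 2.54-fold. Those that fell were led by ATP5PF (a peripheral stalk subunit of ATP synthase), which was 1.95-fold lower, and UQCRQ (a small complex III subunit), which was 1.89-fold lower. By edgeR's quasi-likelihood test with Benjamini-Hochberg adjustment over all 15202 genes, at an adjusted p under 0.05, 12 of 76 members rose and 50 fell. Of all tested genes 23.5% rose and 19.4% fell (43% in either direction), so a large share of all genes moved under this drug. As shares of the members tested, 15.8% rose and 65.8% fell. The members' median log2 difference was -0.54 and that of all genes was -0.06. In a bulk precipitate, fewer cells that hold a transcript and less of it per cell cannot be told apart.

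NDUFS1, which carries electrons from NADH into complex I, was at 40.8 and 43.5 CPM in the untreated uncoupled libraries and at 138.6 and 124.8 CPM after puromycin. On GFP beads it was at 42.2 and 36.6 CPM untreated and at 103 and 116.5 CPM after puromycin. All 4 puromycin libraries thus lay above all 4 untreated ones, with a log2 difference of 1.64 ± 0.13 (SE, n = 2 per group; edgeR adjusted p = 3.59e-09) on uncoupled beads and 1.48 ± 0.13 (edgeR adjusted p = 1.38e-08) on GFP beads. UQCRC2 was at 80.8 and 67.5 CPM untreated and at 231.4 and 200.5 CPM after puromycin on uncoupled beads, a log2 difference of 1.54 ± 0.14 (edgeR adjusted p = 2.20e-08). On GFP beads it was at 75.3 and 66.1 CPM, then 181.8 and 216.3 CPM. ATP5F1B was at 342.7 and 289.9 CPM untreated and at 826.2 and 778.9 CPM after puromycin on uncoupled beads, a log2 difference of 1.34 ± 0.14 (edgeR adjusted p = 1.70e-07). Its GFP bead values were 274.6 and 320.3 CPM untreated and 708.2 and 771.7 CPM after puromycin, again without overlap. In RefSeq (GRCh38.p14) NDUFS1 lies at chr2:206114817-206159444, UQCRC2 at chr16:21953361-21983660 and ATP5F1B at chr12:56638175-56645984, and values are for whole genes.

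ATP5PF was at 243.6 and 245.2 CPM in the untreated uncoupled libraries and at 130.3 and 120.8 CPM after puromycin, and at 234.1 and 215 CPM, then 136.3 and 153.8 CPM, on GFP beads. Its log2 difference was -0.96 ± 0.13 (edgeR adjusted p = 4.04e-06) on uncoupled beads and -0.63 ± 0.13 on GFP beads. NDUFB7, an accessory subunit of complex I, went from 215 and 211.9 CPM to 115.7 and 110.4 CPM on uncoupled beads and from 216 and 197.8 CPM to 136.1 and 130.9 CPM on GFP beads. COX7A2, a single-helix subunit of complex IV, went from 175.8 and 196.6 CPM to 98.9 and 102.3 CPM on uncoupled beads and from 207.4 and 158.2 CPM to 105.6 and 105 CPM on GFP beads. In each of these 3 genes every puromycin library lay below every untreated one.

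**Figure D2:**
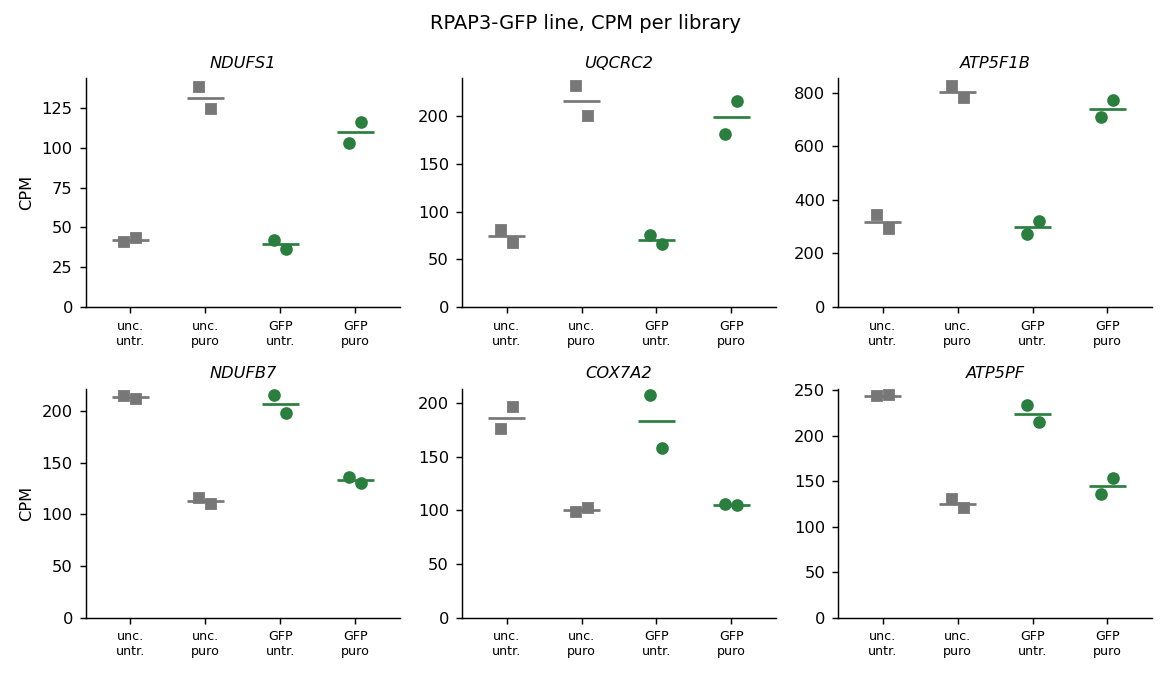
CPM in each RPAP3-line library for 3 members that rose and 3 that fell with puromycin, squares for uncoupled (unc.) and circles for GFP beads, with a line at the mean of 2 libraries (untr., untreated; puro, puromycin). NDUFS1 rises from 36.6 to 43.5 CPM up to 103 to 138.6 CPM, and ATP5PF falls from 215 to 245.2 CPM down to 120.8 to 153.8 CPM.

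Calls were then counted by the role of the subunit. The role groups were drawn up with these values known and no test compares them, so their counts are a description. Of 7 core subunits of complex I, 3 rose, NDUFS1 and the NADH-binding NDUFV1 among them, and 3 fell (NDUFS7, NDUFS8 and NDUFV2, which carry iron-sulphur clusters). Of 29 accessory subunits of complex I, 20 fell and 3 rose, namely NDUFA9, NDUFA10 and NDUFV3. In complex III the core proteins UQCRC1 and UQCRC2 rose, the Rieske protein UQCRFS1 was at -0.19 and was not called, and 5 of 6 small subunits fell. Complex IV had no riser: all 13 tested subunits were at negative log2 differences, between -0.90 and -0.39, and 11 were called lower. COX4I1, the largest nuclear-encoded subunit of this enzyme, was at -0.39 ± 0.14 (edgeR adjusted p = 0.0242). In ATP synthase the alpha, beta and gamma subunits of the catalytic head and stalk (ATP5F1A, ATP5F1B and ATP5F1C) rose, and ATP5F1D fell. Of 12 tested membrane and peripheral stalk subunits ATP5PB rose and 9 fell, and the inhibitor ATP5IF1 fell. As shares of a library, complex IV went from 0.437% to 0.528% in untreated cells down to 0.320% to 0.332%, while ATP synthase stayed between 0.389% and 0.453% throughout.

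On GFP beads of the same line 13 members were called higher and 43 lower, against 22.1% and 17.5% of all tested genes (39.6% in either direction). All 12 members that rose on uncoupled beads were called higher here too, and NDUFS3 joined them at 0.48 ± 0.15. Of the 50 that fell, 41 were called lower and all 50 were negative. The log2 differences of the 76 members on the 2 kinds of beads had a Pearson correlation of 0.968 and a Spearman correlation of 0.831 (0.612 and 0.743 over all 15202 genes). These correlations are across genes, which are not replicates, and both kinds of beads were loaded from the same line. When all 24 libraries were fitted together, which also changed the genes tested and the scaling, the GFP bead count was 26 (11 higher, 15 lower) and the median -0.52, against -0.43. On uncoupled beads NDUFS1, UQCRC2, NDUFA9, ATP5F1B, ATP5F1A, NDUFA10, UQCRC1, ATP5PF, UQCRQ and COX8A each kept their call in 11 of 11 alternatives. COX7C, an abundant small subunit of complex IV, was at -0.67 ± 0.15 (edgeR adjusted p = 0.00119) and lost its call in 1 of 11 (adjusted p = 0.109 with all 24 libraries fitted together).

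**Figure D3:**
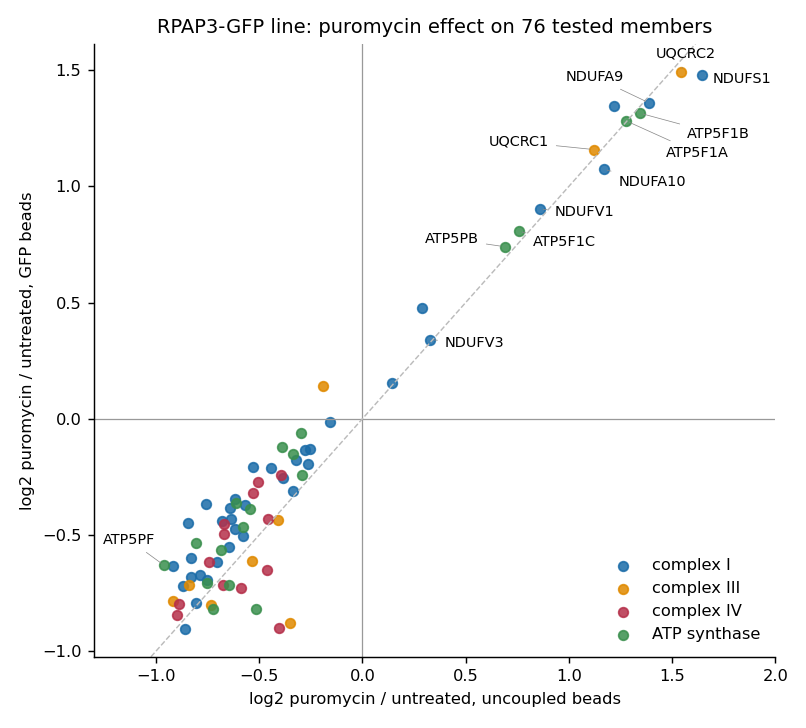
Puromycin effect (log2 puromycin over untreated) in the RPAP3 line on uncoupled beads (x) and GFP beads (y), 1 point per tested member, coloured by complex, with the dashed line marking equal values. The 12 members that rose on uncoupled beads, from NDUFV3 at 0.33 to NDUFS1 at 1.64, lie at the upper right with NDUFS3, and complex IV lies wholly at the lower left.

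Promoter letters are shown as background, since respiratory genes are known to share the promoter factors NRF1, GABPA (of the ETS family) and YY1. Transcription was not measured, and a link between these letters and the puromycin effect was not tested. Windows of 300 bases around RefSeq start sites (250 before, 50 after; GRCh38.p14) were found for 67 members, 80 windows in all, and were searched on both strands. The NRF1 letters GCATGCGC were in 16.2% of member windows and in 3.05% of all 35116 windows. The ETS letters CCGGAAG were in 25% against 10.3%, and the YY1 letters AAGATGGC in 15.0% against 2.89%. The ETS letters end in AAG, with which the YY1 letters open, so matches of these motifs can overlap. Among 10 members with a window that rose on uncoupled beads of the RPAP3 line, 1 held the NRF1, 2 the ETS and 3 the YY1 letters. Among 44 that fell, 9, 15 and 7 held them. A match is a description of letters and no evidence of binding. Below are the 120 bases before the start of 1 riser and 2 fallers, 5′ to 3′ on the strand of the gene, with matches in capitals. They were picked, among called members with 1 window, for holding a match in these bases, and members on 1 chromosome were left out. They were taken in order of effect size on RPAP3 uncoupled beads. They thus do not stand for risers or fallers at large. The 10 capitals of ATP5F1C are the NRF1 letters read on both strands with overlap.
ATP5F1C (chr10:7788057-7788176, plus strand, rose): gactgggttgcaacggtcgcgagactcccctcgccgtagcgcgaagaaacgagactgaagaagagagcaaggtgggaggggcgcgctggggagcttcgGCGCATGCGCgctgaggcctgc
UQCRQ (chr5:132866522-132866641, plus strand, fell): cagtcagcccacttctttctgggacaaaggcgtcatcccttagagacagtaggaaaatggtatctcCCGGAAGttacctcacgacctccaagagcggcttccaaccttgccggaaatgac
NDUFB7 (chr19:14572067-14572186, minus strand, fell): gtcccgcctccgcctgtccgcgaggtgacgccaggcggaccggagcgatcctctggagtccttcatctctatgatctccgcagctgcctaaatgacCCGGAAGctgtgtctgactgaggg
Over these windows ATP5F1C mRNA had a log2 difference of 0.76 and UQCRQ and NDUFB7 mRNAs of -0.92 each on uncoupled beads.

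No member passed the test for enrichment with RPAP3. Enrichment is the log2 ratio of GFP to uncoupled beads. In untreated RPAP3 cells 0 of 76 members were called (1.54% of all tested genes were), with 3 at an unadjusted p under 0.05 and 0 called by DESeq2. The members' median was -0.08, within a range of -0.32 to 0.30, with a median SE of 0.135. Leaving out 1 library moved that median between -0.20 and -0.02 (without GFP replicate A and B). After puromycin 0 were called (0.46% of all genes), with 1 at an unadjusted p under 0.05 and 0 by DESeq2, and the median was 0.02 (-0.04 and 0.08 without uncoupled replicate B and A). The puromycin change in RPAP3 enrichment, tested as an interaction, also gave 0 called members (0.25% of all genes), with 2 at an unadjusted p under 0.05 and 0 by DESeq2. Its leading member was NDUFA11, an accessory subunit of complex I, at 0.40 ± 0.17 (edgeR adjusted p = 1).

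In the RUVBL1 line part of the members were called lower on GFP beads, relative to uncoupled ones, after either drug given alone. After puromycin COX7C was 2.94-fold lower, and ATP5MD and ATP5MG (membrane subunits at the dimer face of ATP synthase) were 2.45-fold and 2.44-fold lower. In that condition 29 of 76 members were called lower and 1 higher, against 3.82% of all 15976 tested genes lower and 9.95% higher (13.8% in either direction). The members' median was -0.81 and that of all genes was 0.00, and 67 of 76 were negative.

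COX7C was at 588.3 and 387.2 CPM on uncoupled beads and at 159.4 and 172.3 CPM on GFP beads after puromycin, a log2 enrichment of -1.56 ± 0.39 (edgeR adjusted p = 0.0143). In untreated cells it was at 298.8 and 460.3 CPM on uncoupled beads and at 483.2 and 265.1 CPM on GFP beads, so that the 2 kinds of beads overlapped there. ATP5MG was at 348.2 and 252.3 CPM on uncoupled beads and at 126 and 119.9 CPM on GFP beads after puromycin, a log2 enrichment of -1.29 ± 0.29 (edgeR adjusted p = 0.0048). Its untreated values, 216.6 and 326.6 CPM on uncoupled and 292.8 and 195.6 CPM on GFP beads, overlapped too. COX6A1, a small subunit of complex IV, was at 224.4 and 180.6 CPM on uncoupled beads and at 87.9 and 93.9 CPM on GFP beads after puromycin.

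By role, 11 of 29 accessory subunits of complex I were called lower after puromycin, with NDUFC1, NDUFB6, NDUFB4 and NDUFA3 between -1.17 and -1.13. Of the 7 core subunits NDUFV2 was called lower. In complex III 3 of 6 small subunits (UQCR10, UQCRQ and UQCRB) were lower and none of the core proteins was called. In complex IV 6 of 13 were lower, COX6A1 at -1.16 ± 0.26 among them, and all 13 were negative. Of the membrane and peripheral stalk subunits of ATP synthase 7 of 12 were lower, and none of the 5 head and stalk subunits was called. ATP5F1A, ATP5F1B and NDUFS1 were at 0.63 ± 0.27, 0.33 ± 0.27 and 0.50 ± 0.26 and were not called. UQCRHL, a near-identical copy of UQCRH, had the highest value, 1.61, from under 1 CPM in every library, and was not called; reads of the pair may have been assigned to either.

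**Figure D4:**
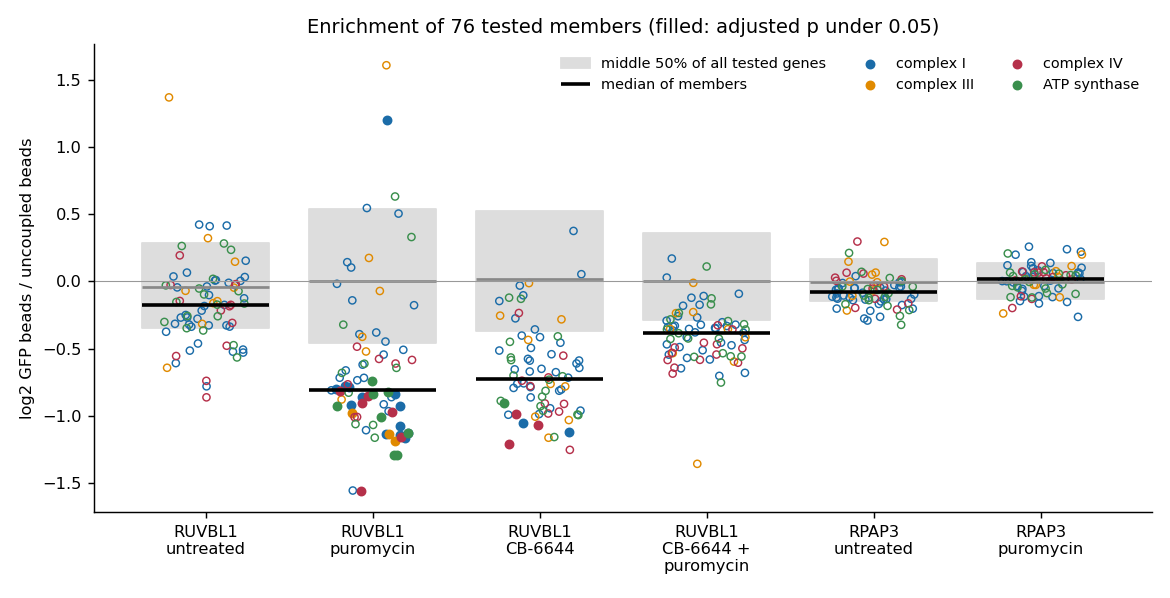
Log2 ratio of GFP to uncoupled beads for 76 tested members in 6 conditions, coloured by complex and filled where called, with a black line at the members' median, a grey line at the median of all tested genes and a grey band over the middle 50% of those genes. The members' median is -0.81 in the RUVBL1 line after puromycin and -0.72 after CB-6644, and 0.02 in the RPAP3 line after puromycin.

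The call depended on having all 4 libraries. Without GFP beads replicate 1 or 2 it was 8 or 0 members, and without uncoupled beads replicate 1 or 2 it was 1 or 10, although the median stayed between -0.89 and -0.76. Only 1 library is then left in an arm, and it is assumed to vary like the other groups. Other settings gave more calls, up to 59 (4 higher, 55 lower) when only the 4 libraries compared were fitted. Shares of all genes called are not given for this or any other alternative fit.

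In untreated RUVBL1 cells 0 of 76 members were called (0.933% of all tested genes were), with 6 at an unadjusted p under 0.05, all lower, and 1 called by DESeq2. The median was -0.17, against -0.05 over all genes, and its sign turned on 1 library. It was 0.025 without uncoupled replicate 2, which stood apart, and -0.34 without uncoupled replicate 1. Without the 3 libraries that stood apart it was 0.033, with 1 member called higher. Without GFP replicate 2 it was -0.033. NDUFA7, an accessory subunit of complex I, was at -0.78 ± 0.24 (edgeR adjusted p = 0.152) and COX8A, a small subunit of complex IV, at -0.74 ± 0.24 (edgeR adjusted p = 0.174). The puromycin change in enrichment, which sets the treated against the untreated cells, gave 0 called members (0.113% of all genes), with 18 at an unadjusted p under 0.05, 17 of them lower, and 0 by DESeq2. Its median was -0.54, and ATP5MG led ATP synthase at -1.14 ± 0.40 (edgeR adjusted p = 0.335). Without the 3 libraries that stood apart, 1 of which is an untreated uncoupled library, 40 members were called (2 higher, 38 lower) and the median was -0.78. Only that untreated uncoupled library enters this comparison, and the others act through the shared fit. Without it alone the median was -0.77. Whether the puromycin change itself passed the test thus turned on which libraries were fitted together. The 0.113% of all genes belongs to the main fit, and no such share is given for the other fits.

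The drug effect on each kind of bead was compared next. On uncoupled beads of the RUVBL1 line puromycin gave 0 called members (0% of all genes), with 5 at an unadjusted p under 0.05 and 0 by DESeq2, and a median of 0.11. That median was 0.28 without untreated replicate 2, which stood apart, -0.013 without untreated replicate 1, 0.012 without puromycin replicate 1, and 0.17 without puromycin replicate 2. Without the 3 libraries that stood apart it was 0.29, again with 0 calls. On GFP beads puromycin gave 3 higher and 4 lower, against 4.09% and 0.951% of all genes (5.04% in either direction), and a median of -0.55. Those higher included NDUFS1 at 0.92 ± 0.26 and NDUFS3 at 0.88 ± 0.24, core subunits of complex I, and the 4 lower were ATP5MD, UQCRH, NDUFA3 and ATP5MG, between -1.14 and -0.99. Leaving out an untreated GFP library left 1 call in either case, and leaving out puromycin replicate 1 or 2 left 2 or 0. The members that moved in the RPAP3 line were set beside these values, which come from other libraries. Of the 12 that rose on RPAP3 uncoupled beads, 11 were positive on RUVBL1 GFP beads, and of the 50 that fell all 50 were negative there. On RUVBL1 uncoupled beads 12 of 12 were positive and 25 of 50 negative. Among all 76 members 13 were positive and 63 negative on RUVBL1 GFP beads, and 47 and 29 on RUVBL1 uncoupled beads. The matching shares over all genes were not counted. Across the 76 members the Pearson correlation with the RPAP3 uncoupled effect was 0.852 for RUVBL1 GFP beads and 0.411 for RUVBL1 uncoupled beads (0.346 and 0.151 over 14748 genes), as a description.

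The puromycin effect on uncoupled beads was set between the lines directly. The difference, RPAP3 line minus RUVBL1 line, had 1 called member, which was higher, against 2.67% of all genes higher and 0.485% lower (3.16% in either direction). This was UQCRC2, at 1.12 ± 0.32 (edgeR adjusted p = 0.0441). It was at 118.3 and 99 CPM untreated and at 135.6 and 131.5 CPM after puromycin on RUVBL1 uncoupled beads. The members' median difference was -0.61, and 42 members had an unadjusted p under 0.05. The count was 14 without untreated uncoupled replicate 2 of the RUVBL1 line and 54 (7 higher, 47 lower) without the 3 libraries that stood apart. It was 0 without any 1 of the other 7 libraries of this comparison. Line, depth and any difference in handling of the lines cannot be told apart here.

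After CB-6644 6 of 76 members were called lower on GFP than on uncoupled beads and 0 higher, against 0.557% and 1.87% of all genes (2.42% in either direction). The 6 were COX7A2, NDUFA4 and COX5A of complex IV, NDUFA1 and NDUFB3 of complex I, and the ATP synthase ring subunit ATP5MC1. The median was -0.72 and 74 of 76 were negative. COX7A2 was at 125.3 and 131 CPM on uncoupled beads and at 63.4 and 58.6 CPM on GFP beads, a log2 enrichment of -1.07 ± 0.23 (edgeR adjusted p = 0.0165). Both GFP libraries lay at about the same level below both uncoupled ones. NDUFA4 was at 64 and 60.4 CPM on uncoupled beads and at 36.4 and 16.9 CPM on GFP beads, a log2 enrichment of -1.21 ± 0.27 (edgeR adjusted p = 0.0216). The lower of its GFP values belongs to replicate 2, a library that stood apart and held 9019665 counts. Without replicate 1 of that group 53 members were called and the median was -1.14, and without replicate 2 none was called and the median was -0.41. Leaving out either uncoupled library also left 0. Without the 3 libraries that stood apart, which leaves 1 GFP library with CB-6644, the median was -0.41 too. Most of the 6 named members lost their call there. CB-6644 against untreated cells on GFP beads alone gave 0 called members (1.09% of all genes), with 21 at an unadjusted p under 0.05 and 5 by DESeq2, and a median of -0.41. That count was 39 without CB-6644 replicate 1 (median -0.87), 1 without replicate 2 and 4 without the 3 libraries (median -0.17).

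**Figure D5:**
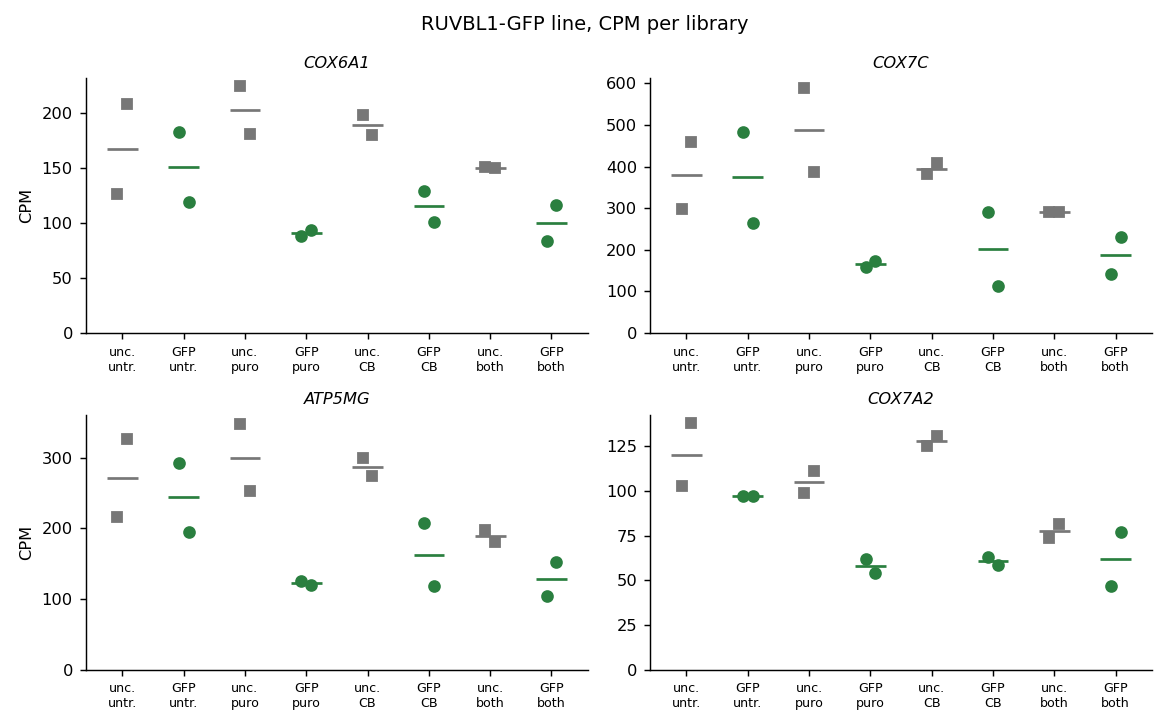
CPM in each RUVBL1-line library for COX6A1, COX7C, ATP5MG and COX7A2, squares for uncoupled (unc.) and circles for GFP beads, with a line at the mean of 2 libraries (untr., untreated; puro, puromycin; CB, CB-6644; both, both drugs). All 4 are lower on GFP than on uncoupled beads after puromycin and after CB-6644.

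The CB-6644 change in enrichment gave 0 called members (0.188% of all genes), with 13 at an unadjusted p under 0.05 and 0 by DESeq2. NDUFB2 was at -1.20 ± 0.39 (edgeR adjusted p = 0.269) and the median was -0.52. The count was 31 without CB-6644 GFP replicate 1 (median -0.97) and 3 without the 3 libraries that stood apart, and the median was -0.23 without CB-6644 GFP replicate 2. With both drugs 0 members were called as enriched or depleted (0.557% of all genes), with 5 at an unadjusted p under 0.05 and 0 by DESeq2. The median was -0.38, and 73 of 76 were negative. It was -0.72 without GFP replicate 2 and -0.17 without GFP replicate 1, which stood apart. Without the 3 libraries it was -0.17 too, with 0 calls. COX7A2 was then at 73.8 and 81.6 CPM on uncoupled beads and at 46.9 and 77 CPM on GFP beads, which overlap. The puromycin change in enrichment under CB-6644 had 0 called members (0.0501% of all genes), with 1 at an unadjusted p under 0.05 and 0 by DESeq2. Its median was 0.29, a value that rested on single libraries. Without CB-6644 GFP replicate 2, which stood apart, the median was -0.019 with 0 calls, and without replicate 1 it was 0.75 with 8 calls. It was 0.49 and 0.041 without replicate 1 and 2 of the GFP beads with both drugs, and 0.20 with 0 calls without the 3 libraries. Whether the puromycin change differed with the inhibitor was tested as an interaction of beads and both drugs. It had 0 called members (0.00626% of all genes), with 19 at an unadjusted p under 0.05, all positive, and 0 by DESeq2. NDUFB4 led at 1.95 ± 0.59 (edgeR adjusted p = 0.534). It had 33 calls without CB-6644 GFP replicate 1 and 19 without the 3 libraries that stood apart. The CB-6644 change in enrichment under puromycin had 0 called members (0.106% of all genes), with 6 at an unadjusted p under 0.05 and 0 by DESeq2. That count was 13 (12 higher, 1 lower) without the 3 libraries.

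The baits were compared after the same treatment. Untreated, the difference between RUVBL1 and RPAP3 enrichment was called for 0 members (0.407% of all 16695 genes tested), with 2 at an unadjusted p under 0.05 and 0 by DESeq2. The median was -0.035, between -0.22 and 0.13 with 1 library left out, and 0.11 with 0 calls without the 3 libraries that stood apart. After puromycin RUVBL1 enrichment was higher than RPAP3 enrichment for 1 member and lower for 5, against 3.98% and 0.473% of all genes (4.45% in either direction), and the median was -0.75. The 5 with a lower one were ATP5MD, ATP5MG, ATP5PD, COX6A1 and NDUFB7. Leaving out 1 library at a time gave 0 to 5 calls. The count was 0 without RUVBL1 GFP puromycin replicate 2, RUVBL1 uncoupled puromycin replicate 1, or replicate A of either RPAP3 bead group, 1 without replicate B of either RPAP3 group, and 3 without RUVBL1 GFP puromycin replicate 1.

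Genes outside the symbol rule were also read, from lists of assembly factors, import proteins, regulators and complex II genes. Some of them are subunits themselves: SDHA, SDHB, SDHC and SDHD of complex II, CYC1 of complex III and NDUFAB1, the acyl carrier of complex I. In the RPAP3 line on uncoupled beads 13 of 24 complex IV assembly factors fell with puromycin and 3 rose: LRPPRC, which binds mitochondrial mRNAs, at 1.31 ± 0.15, COX15, of heme A synthesis, at 1.27 ± 0.15, and the copper chaperone SCO1 at 0.99 ± 0.13. Of 19 complex I assembly factors and acyl carrier 8 fell and 4 rose, led by ACAD9 at 1.11 ± 0.15 and FOXRED1 at 1.24 ± 0.17. Of 8 complex II genes 4 fell and 2 rose, and SDHA, the flavoprotein that oxidises succinate, was at 2.10 ± 0.14. Of 8 tested complex III partners 4 fell and 1 rose, and of 6 ATP synthase assembly factors 3 fell. Of 24 import genes 14 fell, among them TIMM13 and TIMM8A, and 7 rose, led by the matrix chaperone HSPA9 at 1.78 ± 0.16. Of 10 tested regulators 5 rose, led by the mitochondrial RNA polymerase POLRMT at 1.52 ± 0.13 and its partner TFB2M at 1.40 ± 0.14, and ESRRA fell. These shares are to be read beside the 23.5% of all genes that rose and the 19.4% that fell.

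In RUVBL1 enrichment after puromycin 9 of 24 complex IV assembly factors were called lower and none higher, including the copper carrier COX17 at -1.18 ± 0.26 and COA3 at -1.18 ± 0.29. Lower calls were made for 3 of 19 complex I assembly factors and acyl carrier, the subunit NDUFAB1 among them, and 3 of 8 complex II genes. Also lower were 4 of 24 import genes (TOMM6, TIMM8B, TOMM5 and TOMM7), UQCC2 of complex III assembly and TMEM70 of ATP synthase assembly. Of 10 regulators 4 were called higher: POLRMT at 1.62 ± 0.28, ESRRA at 1.27 ± 0.28, PPRC1 at 1.06 ± 0.24 and PPARGC1B at 0.98 ± 0.26. Of all tested genes 3.82% were called lower and 9.95% higher in this comparison. The calls among the 76 members fell to 0 to 10 when 1 library was left out, and these lists were not recounted in that way. After CB-6644 UQCC2, at -1.02 ± 0.26, was the 1 called gene of these lists (0.557% of all genes were called lower), and in untreated cells of either line no gene of these lists was called.

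Changes are relative to a library's scaling. Upper-quartile scaling shifted the median of all genes by -0.17 and -0.16 for puromycin on RPAP3 uncoupled and GFP beads. Total-count scaling shifted it by 0.24 for CB-6644 enrichment. Under 3 scalings the members' median minus that of all genes stayed within -0.485 to -0.483, -0.362 to -0.359 and -0.752 to -0.743 in these 3 comparisons. Scaling shifts all genes of a comparison by about the same amount, so it nearly cancels in this difference. The near-constant values are thus no test of the members' shift. No called member changed sign under any of the 3 scalings.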

How the data were processed

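RNA co-purified with GFP-tagged RUVBL1 or RPAP3, or adhering to uncoupled beads, was sequenced in 24 libraries of 12 groups. Per the submitters' processing notes, the build was hg38 and the tools included TopHat2 (2.1.1) and featureCounts (2.0.3), and per the labels' protocols a stranded SMART-seq kit. Settings for strand and shared reads are not given in the sources used here. The deposited values are raw counts per gene, and the authors' table was used as it stands.

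Counts were tested with edgeR 4.0.16 (R 4.3.3, limma 3.58.1): filterByExpr (minimum count 10), TMM scaling, robust quasi-likelihood fits with 1 mean per group, over 16 RUVBL1-line libraries (15976 genes), 8 RPAP3-line libraries (15202 genes) or all 24 (16695 genes), with Benjamini-Hochberg adjustment over all genes and calls at an adjusted p under 0.05. CPM of members and PRPF8 use TMM-scaled library sizes, and CPM of cell markers use total counts. The script was checked on simulated data. There, 22.9% of genes changed by 1 log2 unit were called for puromycin on RUVBL1 uncoupled beads. For the same comparison in the RPAP3 line 70.8% were called. Alternatives were other scalings, no filter, a replicate block, other sets of libraries, each library left out and DESeq2 1.42.0. Drug effects on GFP beads and between lines, and fits without 3 libraries, were added after seeing the data. The members and lists were chosen with earlier results of these data known. Members named were those called (10 of largest effect where more), the smallest p of each complex and preset central subunits and isoforms; NDUFV1, NDUFV3, NDUFS3, NDUFS7, NDUFS8, ATP5F1C, ATP5PB and other role examples were named after their values were seen. Values of 1 member are not reported here, and it is counted without its name. All 82 members matched RefSeq by ID or synonym. Gene and transcript lengths were not used, so levels are not compared between genes. The ± values are standard errors of the edgeR fits and include the spread among the libraries fitted together. The limit from a count of 0 covers counting error alone.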

Additional observations from a re-analysis of the deposited data

Results flagged for a closer look

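After puromycin 5 members had a lower RUVBL1 than RPAP3 enrichment, tested as RUVBL1 minus RPAP3 enrichment over all 24 libraries by edgeR. In that comparison 4.45% of all 16695 tested genes and 7.89% of the 76 members were called, in either direction. COX6A1 differed by -1.19 (adjusted p = 0.0310), ATP5PD by -1.06 (adjusted p = 0.0370), ATP5MG by -1.21 (adjusted p = 0.0473), NDUFB7 by -1.01 (adjusted p = 0.0480) and ATP5MD by -1.23 (adjusted p = 0.0487), with 2 libraries in each of the 4 groups. The puromycin effect on uncoupled beads differed between the RPAP3 and the RUVBL1 line for UQCRC2, by 1.12 (edgeR adjusted p = 0.0441). The calls in both comparisons were lost when certain single libraries were left out, as described above. Whether the tagged protein, the line or its handling moves with these values was not tested.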

How the results depend on the processing

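The counts of called members for puromycin in the RPAP3 line stayed within 1.5 times their value under every alternative run on them, except that GFP beads gave 26 with all 24 libraries fitted together; no member named changed direction in a called result. The other counts moved as follows, and the cause was not tested. Shares of all genes called under the alternatives are not given, so these counts cannot be set beside them. RUVBL1 enrichment after puromycin (30) became 47 with upper-quartile scaling, 49 without the filter, 47 with all 24 libraries, 59 with the compared libraries alone and 50 with DESeq2. RUVBL1 enrichment after CB-6644 (6) became 33 without the filter, 28 with all 24 libraries, 0 with the compared libraries alone and 24 with DESeq2. Puromycin on RUVBL1 GFP beads (3 higher, 4 lower) became 12 with upper-quartile scaling (3 higher, 9 lower), 21 without the filter, 18 with all 24 libraries, 34 with the compared libraries alone and 18 with DESeq2. The bait difference after puromycin (6) became 14, 19 and 27 with upper-quartile scaling, without the filter and with DESeq2. The line difference on uncoupled beads (1) became 5 with upper-quartile scaling (2 higher, 3 lower), 10 with total-count scaling (3 higher, 7 lower), 16 without the filter, 13 with DESeq2 and 54 without the 3 libraries that stand apart.

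Of the comparisons with 0 calls, the filter left out gave 4 for the puromycin change and 4 for the CB-6644 change in RUVBL1 enrichment, 1 for puromycin on uncoupled beads, 1 for the interaction of both drugs and 6 for CB-6644 on GFP beads. All 24 libraries or DESeq2 gave 1 for untreated RUVBL1 enrichment and 5 for CB-6644 on GFP beads. The compared libraries alone gave 1 for the CB-6644 change under puromycin and 25 for CB-6644 under puromycin on uncoupled beads. Without the 3 libraries that stand apart the counts were 40 for the puromycin change, 3 for the CB-6644 change, 13 for the CB-6644 change under puromycin, 19 for the interaction of both drugs, 1 for untreated enrichment, 1 for CB-6644 on uncoupled beads and 4 for CB-6644 on GFP beads.

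Leaving out 1 library at a time gave 50 to 64 calls for puromycin on RPAP3 uncoupled beads and 41 to 58 on RPAP3 GFP beads. It gave 0 to 10 for RUVBL1 enrichment after puromycin, 0 to 53 after CB-6644, 0 to 2 for puromycin and 0 to 39 for CB-6644 on RUVBL1 GFP beads, 0 to 1 for the puromycin change, 0 to 31 for the CB-6644 change, 0 to 8 for the puromycin change under CB-6644, 0 to 33 for the interaction of both drugs, 0 to 5 for the bait difference after puromycin and 0 to 14 for the line difference. Replicate numbers are shared between groups, but deviations of same-numbered libraries had a median correlation of 0.0376 (-0.412 to 0.27) over 28 pairs of groups in the RUVBL1 line and 0.0172 (-0.117 to 0.159) over 6 in the RPAP3 line. With the replicate block the counts were 63 and 56 for puromycin on RPAP3 uncoupled and GFP beads, 33 for RUVBL1 enrichment after puromycin, 7 after CB-6644, 9 for puromycin on RUVBL1 GFP beads, 6 for the bait difference and 2 for the line difference. Few counts limit COX6B2, with 1941 counts in all, UQCRHL, with 1433, and ATP5F1E, with 1753.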

Other observations

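On uncoupled beads of the RUVBL1 line, CB-6644 given with puromycin was set against puromycin alone. All 18 tested ATP synthase subunits and 35 of 36 complex I subunits were negative, and the members' median was -0.29 against 0.01 over all genes. By edgeR 0 members were called (0.00626% of all genes), with 3 at an unadjusted p under 0.05 and 0 by DESeq2. Without puromycin CB-6644 gave a median of 0.06 on the same beads (0.27 without untreated replicate 2, which stood apart, and -0.027 without untreated replicate 1), with 0 called members (0% of all genes), 1 at an unadjusted p under 0.05 and 0 by DESeq2. The difference between these effects was not tested.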
